A study of Mus musculus with 4 samples.

Results

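Striatal libraries differ in how much of their signal comes from the mitochondrial genome, and the 22 libraries above the median share of their own group are described here against the 22 below it. The share of a library was the sum over the 37 genes whose symbols start with mt-, divided by the sum over all genes. Within each of 4 groups the libraries were divided at the median, and the library that sat at the median of each group of odd size was left out, so that 44 of 46 libraries were used. The classes were thus chosen by the measured share. The share and the mitochondrially encoded genes are described with no test, and other genes entered the choice through the total alone.

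The tissue was dorsomedial striatum (DMS) or dorsolateral striatum (DLS) of C57BL/6 mice aged 8 weeks, either wild-type or Foxp2hum/hum, that is, homozygous for a humanised allele of the transcription factor gene Foxp2. It was cut from frozen brains by laser capture, and libraries enriched for mRNA were made from 15 ng of total RNA per sample. The groups held 11 wild-type DMS, 11 wild-type DLS, 12 Foxp2hum/hum DMS and 12 Foxp2hum/hum DLS libraries, with 5 high-share and 5 low-share libraries in each wild-type group and 6 of each in each Foxp2hum/hum group. No label says which animal a library came from, so both regions may come from the same animals, and p-values measure only the spread between these libraries.

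Mitochondria keep a small circular genome that encodes core subunits of respiratory complexes I, III and IV and of ATP synthase, together with the rRNAs and tRNAs of their own ribosomes. All other subunits of these complexes, and the proteins that copy, transcribe and translate mitochondrial DNA, are encoded in the nucleus and imported. Mitochondrial transcripts are made as long precursors from both strands, cut at the tRNAs and, for most mRNAs, given short poly(A) tails, so they are carried along when polyadenylated RNA is selected. In brain tissue they make up a large part of such libraries, and their share is widely used as a measure of library or cell quality.

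In wild-type DMS the share ran from 21.9% to 26.3% in the high class (median 23.05%) and from 11.9% to 18.6% in the low class (median 17.7%), with the library at the median at 21.5%. In wild-type DLS it ran from 22.3% to 29.3% (median 26.8%) against 18.2% to 21.5% (median 20.2%), and the library left out was at 22.2%. In Foxp2hum/hum DMS it ran from 22.1% to 27.4% (median 25.9%) against 15.6% to 22.1% (median 19.3%). These classes met: the lowest high-share and the highest low-share library of Foxp2hum/hum DMS were 0.044 percentage points apart. In Foxp2hum/hum DLS the share ran from 24.8% to 30.7% (median 26.1%) against 20.4% to 24.02% (median 22.9%), with 0.77 points between the classes. Over all groups the mean was 25.5% ± 2.48 in the high class (SD, n = 22) and 19.7% ± 2.90 in the low class (n = 22), and the classes overlapped, because each group had its own median.

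**Figure D1:**
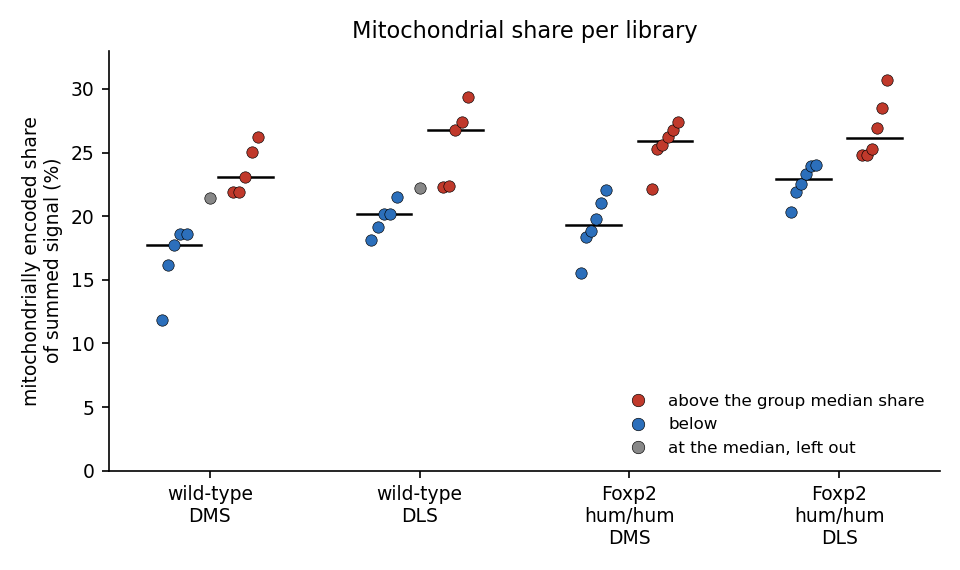
Share of each library's summed signal that came from mitochondrially encoded genes (%), by group. Red points are libraries above the group's median, blue points those below, grey points the 2 libraries at the median, and black lines the class medians; the lowest point is the wild-type DMS library at 11.9%.

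The depths of the classes overlapped. Whole reads, recovered from the deposited values and summed over genes, averaged 24.9 ± 5.13 M per library in the high class and 22.9 ± 3.68 M in the low class (M, mega; range over both, 17.2 to 41.01 M; SD, n = 22 each; permutation test within groups, two-sided, p = 0.162, adjusted over 2 tests p = 0.259). The number of nuclear genes with a read was 23428 ± 528 against 23577 ± 319 (permutation p = 0.259, adjusted p = 0.259). The projection-neuron marker of the striatum was high in both classes: Ppp1r1b, which encodes a phosphoprotein of dopamine signalling, ran from 21733 to 52574 (median 36748) in the 22 high-share libraries and 26989.8 to 45979 (median 32878) in the 22 low-share libraries. The summed level of 10 cortical neuron markers was 1347 to 2978 (median 1846) in high-share and 1387 to 3263 (median 2177) in low-share libraries. Library 72, of wild-type DMS, had the lowest share of all. It and library 70, of wild-type DLS, were both low-share. Earlier results of these data had set that pair apart, and the main counts are given below with and without it.

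All 13 mitochondrial protein genes had higher means in the high-share libraries, as the choice of classes made likely, but by unequal amounts. The log2 differences, on the log2(value + 1) scale, ran from 0.36 for mt-Nd4l and 0.36 for mt-Nd5, subunits of complex I, to 0.69 for mt-Nd3, another complex I subunit. The other complex I genes lay between them: mt-Nd4 at 0.45, mt-Nd1 at 0.59, mt-Nd2 at 0.59 and mt-Nd6, the only protein gene on the other strand, at 0.61. The complex III gene mt-Cytb was at 0.51. The complex IV genes mt-Co1, mt-Co2 and mt-Co3 were at 0.47, 0.48 and 0.61, and the ATP synthase genes mt-Atp8 and mt-Atp6 at 0.68 and 0.68. SEs of these differences were 0.075 to 0.12. Overlapping genes amounted to 560% of the value of mt-Nd4l (mt-Nd4), 353% of mt-Atp8 (mt-Atp6) and 255% of mt-Nd6 (mt-Nd5), so their reads may be shared.

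The class ranges of mt-Atp6 were 590887 to 980842 against 356368 to 466906 normalised reads in wild-type DMS, 648081 to 1180765 against 496423 to 606404 in wild-type DLS, 594162 to 1034981 against 348082 to 662432 in the DMS of Foxp2hum/hum mice and 739634 to 1285251 against 552994 to 797506 in Foxp2hum/hum DLS. High-share libraries lay above all low-share libraries in both wild-type groups and overlapped them in both Foxp2hum/hum groups. For mt-Co1, the mitochondrial gene with the most reads, the ranges were 866141 to 1128690.2 against 608571 to 787181 in wild-type DMS, 898306 to 1531213 against 681984 to 1044185 in wild-type DLS, 891453 to 1222299 against 539746 to 890024 in the DMS of Foxp2hum/hum mice and 1034970.4 to 1554996 against 786596 to 1061348 for the Foxp2hum/hum DLS libraries. Its classes were separate in DMS and overlapped in DLS.

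The rRNA genes moved less than most protein genes. mt-Rnr2, the large-subunit rRNA, had a log2 difference of 0.35, and mt-Rnr1, the small-subunit rRNA, of 0.32. For mt-Rnr1 the value was -0.063 in wild-type DMS, 0.55 in wild-type DLS, 0.51 in the DMS of Foxp2hum/hum mice and 0.24 in Foxp2hum/hum DLS. Its highest value, 375246, belonged to a low-share library. Both rRNAs together took at most 3.21% of a library's total.

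Of the 22 tRNA genes, 19 had a positive difference. The largest were mt-Tp (0.67), mt-Ts1 (0.64), mt-Tk (0.63) and mt-Te (0.63). The gene mt-Ts1 overlaps mt-Co1, which amounted to 2243% of its value, so its reads may be shared. The same holds for mt-Ti with mt-Nd1 (23073%) and mt-Tw with mt-Nd2 (35537%). Lower values came from mt-Tr (log2 -0.032), mt-Th (-0.87) and mt-Ts2 (-0.013), mt-Tt (0.076) and mt-Tl2 (0.20). mt-Th averaged 248 ± 488 in the high class and 603 ± 918 in the low class (SD, n = 22 each). A few libraries carried those means: in wild-type DLS its low-share values ran up to 3950.2, in library 70, with a median of 145, and in Foxp2hum/hum DLS a high-share library reached 2369 with a class median of 147.

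**Figure D2:**
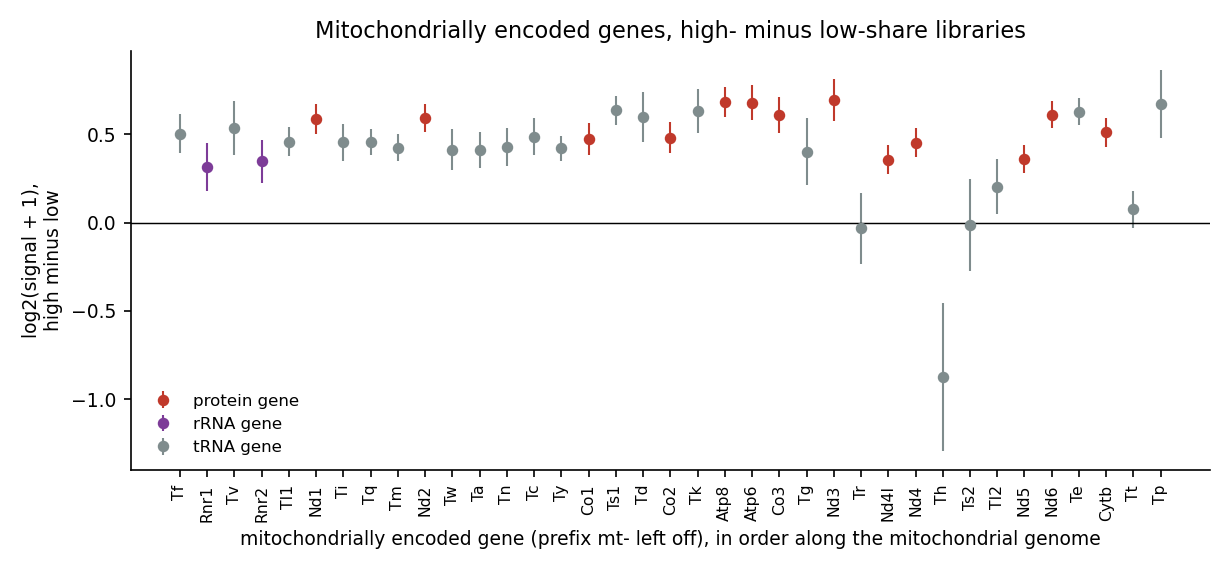
Log2 difference between high-share and low-share libraries (points; bars, 1 SE) for each mitochondrially encoded gene in the order of the genes on the mitochondrial genome. Protein genes lie between 0.36 and 0.69, the rRNA genes at 0.32 and 0.35, and the tRNA genes mt-Tr, mt-Th and mt-Ts2 below 0.

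Nuclear copies of mitochondrial DNA followed the mitochondrial genes. A search of the mm9 genome at 95% identity or more found 8 copies within the spans of 6 counted genes, Gm10925, Gm10222, Gm13339, Gm13340, Gm13341 and Myo3a. Gm10925 on chromosome 1 averaged 861571 normalised reads in the high class against 873041 for mt-Atp6, and their log2 differences were 0.67 and 0.68. Myo3a, a myosin gene whose span on chromosome 2 holds 3 of the other genes, was at 0.48. These 6 genes cannot be told apart from the genes that defined the classes and support nothing here; leaving them out of the fit changed the count of higher genes from 1920 to 1915.

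Outside the mitochondrial genome, the difference between the classes was wide and shallow. Of 19524 nuclear genes tested, 1920 were higher in high-share libraries (9.83%) and 2192 lower (11.2%), 4112 in all (21.1%; limma with the 4 groups as blocks, Benjamini-Hochberg adjusted p below 0.05). The median size of a called difference was 0.31 on the log2 scale, and 255 called genes changed by more than 1.5-fold, 100 higher and 155 lower. Over 2-fold there were 34. The median difference over all genes tested was -0.0026, with a median SE of 0.100.

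Of the 4112 called genes, 3817 (92.8%) had the same sign in all 4 groups, as did 39.7% of all genes tested; the groups' values entered the calls, so this is a description. Without libraries 70 and 72 the counts were 1310 higher and 1398 lower. When each library was scaled to its nuclear total in place of the deposited size factors, 525 genes were higher and 1015 lower. The share of calls that were higher thus went from 46.7% to 34.1%. That total included the 6 genes that hold copies of mitochondrial DNA, which were higher in the high class. With edgeR's TMM scaling on the same genes, 1866 genes were higher and 2215 lower. Without the wild-type DLS libraries 287 genes were higher and 299 lower.

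Among higher genes that met the naming rule, which leaves out copies of mitochondrial DNA, unnamed gene models and genes that overlap others, the smallest p belonged to Gxylt2 (ENSMUSG00000030074, mm9 chromosome 6, 100654728 to 100755075), which encodes an enzyme that adds xylose to the O-glucose of Notch receptors. Its level ran from 296 to 1015 (median 552) in the 22 high-share libraries and 218 to 604 (median 355) in the 22 low-share libraries. Its class ranges were 486 to 1015 against 251 to 371 in wild-type DMS, 405 to 900.2 against 259.8 to 392.4 in wild-type DLS, 296 to 767 against 249 to 604 in the DMS of Foxp2hum/hum mice and 460.5 to 965 against 218 to 452 in Foxp2hum/hum DLS. They overlapped in Foxp2hum/hum DMS and were separate in the other groups. The difference was 1.69-fold (log2 0.76 ± 0.12 SE, limma adjusted p = 8.22e-05).

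Cnih2 (ENSMUSG00000024873, mm9 chromosome 19, 5092871 to 5098418), which encodes an auxiliary subunit of AMPA-type glutamate receptors, ran from 3611 to 6702 (median 5256) in the 22 high-share libraries and 3263 to 5003 (median 4015) in the 22 low-share libraries. The classes overlapped in each group, and the difference was log2 0.34 ± 0.060 (limma adjusted p = 0.000506). Bend6, a transcriptional corepressor gene, was at 1376 ± 149 against 1117 ± 116 (log2 0.30 ± 0.049, limma adjusted p = 0.000219). Ido1, which encodes an enzyme of tryptophan breakdown, was at 929 ± 424 against 631 ± 225 (log2 0.51 ± 0.094, limma adjusted p = 0.000804). Means here and below are given with the SD over 22 libraries, high-share before low-share.

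Other genes that were higher included Car11, a carbonic anhydrase-related gene (log2 0.35), Sepp1, which encodes the selenium carrier selenoprotein P (0.25), Tmsb10, an actin-sequestering thymosin (0.42), and Nudt19, a hydrolase of coenzyme A (0.35). Mettl9, a methyltransferase gene (0.33), Ttc35, of the endoplasmic reticulum membrane complex (0.38), and Rnf126, a ubiquitin ligase gene (0.28), were higher as well. So were Ifltd1 (0.60), Slc34a1, a sodium-phosphate cotransporter gene (0.70), and Bcmo1, which cleaves beta-carotene (0.53). Limma adjusted p for these ran from 0.000861 to 0.00184, and each had the same sign in all 4 groups.

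Pvalb, which encodes the calcium buffer of fast-spiking interneurons, had higher values in all DLS than in all DMS libraries of both classes, and within regions it was higher in the high-share class. Its medians were 75.6 against 55.6 in wild-type DMS, 62.5 against 39.7 in Foxp2hum/hum DMS, 395 against 265 in wild-type DLS and 389 against 257 in Foxp2hum/hum DLS, high-share first. The classes overlapped in each group, and the difference was log2 0.57 ± 0.11 (limma adjusted p = 0.00165).

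Among lower genes that met the naming rule, the smallest p was that of Chgb (ENSMUSG00000027350, mm9 chromosome 2, 132607014 to 132620815), which encodes a secretory granule protein. It ran from 954 to 1859.6 (median 1373) in the 22 high-share libraries and 1517 to 2049 (median 1811) in the 22 low-share libraries. Class ranges were 1155 to 1799.6 against 1517 to 1972 in wild-type DMS, 1377 to 1808 against 1795 to 2031 in wild-type DLS, 954 to 1624 against 1519 to 2049 in the DMS of Foxp2hum/hum mice and 1092 to 1859.6 against 1670.3 to 2001 in Foxp2hum/hum DLS. The classes overlapped in each group. It was 1.30-fold lower (log2 -0.37 ± 0.058, limma adjusted p = 8.98e-05).

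App (ENSMUSG00000022892, mm9 chromosome 16, 84954685 to 85173952), the amyloid precursor protein gene, ran from 7071 to 14426 (median 9991) in the 22 high-share libraries and 10434 to 16238 (median 12902) in the 22 low-share libraries. The classes were separate in wild-type DLS, at 8328 to 12981 against 13074 to 15122, and overlapped in the other groups. The difference was log2 -0.35 ± 0.067 (limma adjusted p = 0.000991). Adar, which encodes the adenosine-to-inosine RNA editing enzyme, was at 1135 ± 243 against 1484 ± 185 (log2 -0.41 ± 0.072, limma adjusted p = 0.000498). Abcf1, a translation factor gene, was at 738 ± 100.4 against 904 ± 94.2 (log2 -0.30 ± 0.048, limma adjusted p = 0.00019).

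Other genes that were lower included Sv2a, a synaptic vesicle glycoprotein (log2 -0.26), Slc8a2, a sodium-calcium exchanger (-0.35), Clip2, a microtubule-binding protein (-0.39), Ntn1, the axon guidance cue netrin (-0.54), and Ywhag, a 14-3-3 protein (-0.35). Ogdhl, a 2-oxoglutarate dehydrogenase-like gene (-0.28), Iars, an aminoacyl-tRNA synthetase (-0.35), Rrbp1, a ribosome-binding protein of the endoplasmic reticulum (-0.42), Safb, a scaffold attachment factor (-0.36), Ddb1 (-0.28) and Dgcr2 (-0.24) completed them. Limma adjusted p ran from 0.000547 to 0.00142, and all had the same sign in all 4 groups.

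**Figure D3:**
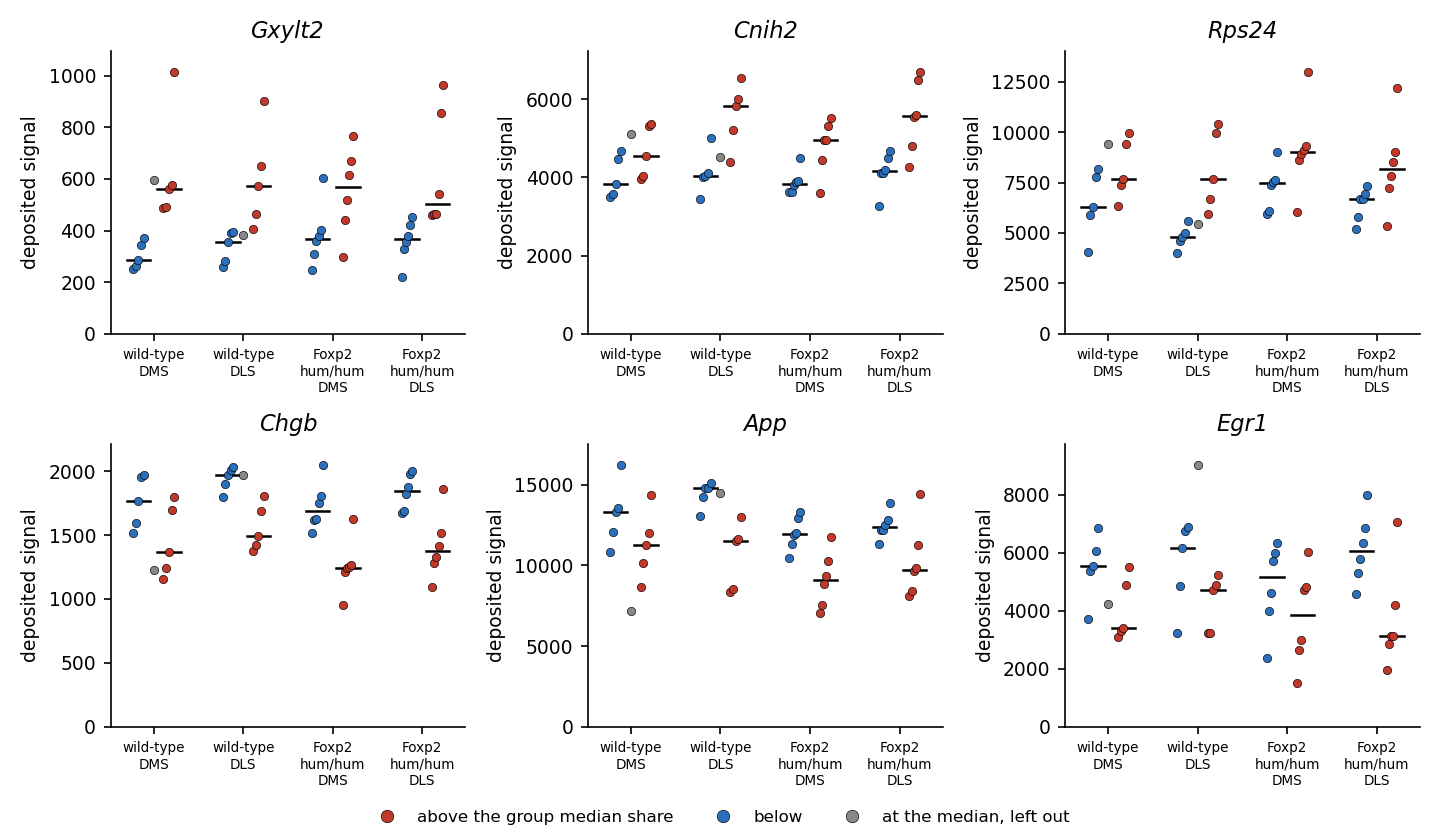
Deposited normalised signal per library for Gxylt2, Cnih2 and Rps24, which were higher in high-share libraries, and Chgb, App and Egr1, which were lower. Points are libraries (red above, blue below, grey at the group's median share), black lines are class medians, and each axis starts at 0; the ranges of the classes overlap in most groups, and those of Gxylt2 are separate in all groups but Foxp2hum/hum DMS.

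Nuclear genes of the respiratory chain that were called were mostly higher in high-share libraries. Of 37 complex I genes, 11 were called higher and none lower, with a median log2 difference of 0.23 against -0.0026 over all genes tested. Complex III had 2 of 9 higher (median 0.24), complex IV with cytochrome c 6 of 12 (0.30) and ATP synthase 6 of 16 (0.21), none lower but 1 in ATP synthase. Against these counts stand 9.83% of all genes tested called higher and 11.2% lower. The share called also depended on level. Of protein-coding genes in the lowest decile of mean value, 2.4278% were called higher and 1.4436% lower. In the highest decile 18.976% were higher and 23.572% lower, with a median log2 difference of -0.01745. The lists were not compared with genes of like level. For lists of abundant genes, here and below, the shares of all genes tested may therefore be too low a reference. Ndufa4, a subunit of the terminal oxidase first listed with complex I, was at 4288 ± 1163 against 3307 ± 892 (log2 0.38 ± 0.11, limma adjusted p = 0.0145). Cycs, the somatic cytochrome c, was at 3945 ± 994 against 3114 ± 737 (log2 0.34 ± 0.074, limma adjusted p = 0.00317).

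Atp5j2, a membrane subunit of ATP synthase, had the largest difference of that list, with 2639 ± 767 against 1888 ± 459 (log2 0.48 ± 0.12, limma adjusted p = 0.00573). Ndufc1 (log2 0.49), Uqcrq (0.38), Cox7a2l (0.30), Cox8a (0.34) and Atp5c1 (0.30) were also higher. Ndufc2 (0.40), Cox6c (0.38) and Atp5j (0.42) were called higher too, but overlapping genes amounted to 11.5%, 19.2% and 16.4% of their values. The members that were lower were Sdha, the flavoprotein of complex II (3552 ± 299 against 4003 ± 286, log2 -0.17, limma adjusted p = 0.00374), and Atp5a1, the alpha subunit of ATP synthase (log2 -0.13, limma adjusted p = 0.0157).

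These calls were fewer under some other choices. Without the wild-type DLS libraries limma called 0 complex I genes higher (median 0.11), 0 of complex III, 1 of complex IV and 0 of ATP synthase, where 1 was lower. Scaled to the nuclear total, copies of mitochondrial DNA included, 2 complex I, 0 complex III, 2 complex IV and 3 ATP synthase genes were higher. With TMM scaling the counts were 11, 2, 6 and 6 in that order.

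The group medians of these lists were not alike. For complex I they were 0.022, 0.62, 0.087 and 0.26 in wild-type DMS, wild-type DLS and then the same for Foxp2hum/hum. For ATP synthase they were -0.0069, 0.51, 0.053 and 0.19 in the same order. The DMS medians were near 0 in both genotypes, while the share differed more between the classes there (means of 23.6% against 16.6% in wild-type DMS and 25.6% against 19.3% in Foxp2hum/hum DMS) than in DLS (25.6% against 19.8% and 26.9% against 22.7%). No gene passed the test for a region difference, as given below.

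Ribosomal protein genes were higher in large part. Of 79 cytosolic ribosomal protein genes, 49 were called higher and none lower, the median log2 difference was 0.28, and no member had a negative value. Rps24, of the small subunit, ran from 5348 to 12995 (median 8569.9) in the 22 high-share libraries and 4008 to 8991 (median 6191) in the 22 low-share libraries, and its classes overlapped in each group but wild-type DLS. The difference was log2 0.43 ± 0.089 (limma adjusted p = 0.00205). Rps7 (log2 0.48), Rpl22l1 (0.55) and Rpsa, which also serves as a laminin receptor (0.41), were the other named members. These genes have many processed pseudogenes, so part of their reads may be shared with copies.

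Of 76 mitochondrial ribosomal protein genes, 24 were called higher and none lower (median 0.19). Mrpl41 was at 734 ± 225 against 533 ± 120.1 (log2 0.44 ± 0.11, limma adjusted p = 0.00602), and Mrpl36 (log2 0.40), Mrps15 (0.31) and Mrpl54 (0.47) were higher as well. Without the wild-type DLS libraries, 2 cytosolic and none of the mitochondrial ribosomal protein genes remained above the threshold in limma, with medians of 0.18 and 0.13.

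The genes that maintain and read mitochondrial DNA did not move as a body. Of 24 tested, 4 were called higher (16.7%) and 1 lower (4.17%), with a median of 0.074. Of all genes tested 9.83% were higher and 11.2% lower. Limma called 0 of the 24 without wild-type DLS, and 0 with the transcript-length covariate described below. Pnpt1, which encodes an RNA-degrading exoribonuclease of mitochondria, was higher (218 ± 56.8 against 172 ± 42.7, log2 0.34, limma adjusted p = 0.0165), as were Fastkd2, needed for the large mitochondrial ribosomal subunit (log2 0.22), and Hsd17b10, a component of mitochondrial RNase P (0.27). Lrpprc, which stabilises mitochondrial mRNAs and their poly(A) tails, was lower, at 487 ± 71.9 against 572 ± 71.8 (log2 -0.23 ± 0.062, limma adjusted p = 0.00948). Tfam, the packaging and transcription factor, had a log2 difference of 0.16 (limma adjusted p = 0.0857), and the RNA polymerase gene Polrmt one of -0.045 (limma adjusted p = 0.669).

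Genes of mitochondrial shape and turnover moved in both directions, 6 of 26 higher (23.1%) and 4 lower (15.4%), with a median of 0.017. Of all genes tested 9.83% were higher and 11.2% lower. With TMM scaling limma again called 6 higher and 4 lower, but fewer under some other choices. Without wild-type DLS it called 0 higher and 1 lower, and scaled to the nuclear total 0 and 2. With the transcript-length covariate described below it called 0 and 1. The fission genes Mff (log2 0.20) and Fis1 (0.28), the import receptor Tomm20 (0.19) and the mitophagy receptor Bnip3l (0.19) were higher. The fusion genes Mfn2 (2174 ± 372 against 2613 ± 361, log2 -0.27, limma adjusted p = 0.00365), Mfn1 (-0.20) and Opa1 (-0.20) were lower, as was the coactivator Ppargc1b (-0.52). Of 16 genes of the tricarboxylic acid cycle, Ogdh (log2 -0.26), Cs (-0.14) and Dlst (-0.12) were lower and Idh3g (0.17) higher. That was 18.75% lower and 6.25% higher, against 11.2% and 9.83% of all genes tested. Of 13 mitochondrial chaperones and proteases, Lonp1 (-0.23) and Afg3l2 (-0.18) were among 4 lower (30.8%), and Clpp (0.30) was the member that was higher (7.69%).

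The called glycolysis genes were lower: 6 of 16 genes were lower and none higher (median -0.067). Pkm2, pyruvate kinase, was at 11461 ± 1235 against 13064 ± 775 (log2 -0.19 ± 0.040, limma adjusted p = 0.0019), and Hk1, the brain hexokinase, at 1532 ± 345 against 1927 ± 341 (log2 -0.35 ± 0.079, limma adjusted p = 0.00376). The phosphofructokinase genes Pfkm (log2 -0.15) and Pfkp (-0.23) were lower too, with an overlapping gene at 14.4% of Pfkp's value.

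Heat shock genes were lower in 6 of 13 cases and higher in none (median -0.17). Hsp90ab1, a constitutive chaperone, was at 13114 ± 1806 against 15394 ± 1199 (log2 -0.24 ± 0.050, limma adjusted p = 0.00198). The inducible Hspa1a and Hspa1b, near-identical copies that reads may not separate, fell by 0.67 and 0.80 on the log2 scale. Hspa4 (log2 -0.28), Hsph1 (-0.24) and Bag3 (-0.44) were the other members called.

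Immediate early genes, which neuronal activity induces within minutes, were lower in 6 of 19 cases and higher in none, and their median of -0.39 was the lowest of the lists. Egr1 ran from 1516 to 7071 (median 3355) in the 22 high-share libraries and 2381 to 7967 (median 5739) in the 22 low-share libraries, the classes overlapping in each group. Its difference was log2 -0.53 ± 0.14 (limma adjusted p = 0.00825). Fosl2 (log2 -0.90), Nr4a3 (-0.83), Egr2 (-0.71), Fosb (-0.65) and Egr3 (-0.46) were also lower. Fos was at log2 -0.49 (limma adjusted p = 0.317) and Npas4 at 0.25 (limma adjusted p = 0.66), with SEs of 0.35 and 0.37. Without wild-type DLS, or without Foxp2hum/hum DLS, 1 immediate early gene was called (medians -0.43 and -0.26).

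Among antioxidant genes 7 of 20 were higher (35%) and 2 lower (10%), with a median of 0.058. With TMM scaling limma again called 7 higher and 2 lower, but fewer under some other choices. Without wild-type DLS it called 0 in either direction, and scaled to the nuclear total 1 higher and 0 lower. With the transcript-length covariate described below 0 were higher and 1 lower. Gpx4, the glutathione peroxidase of membrane lipids, was at 5550.4 ± 1905 against 4171 ± 1085 (log2 0.38 ± 0.11, limma adjusted p = 0.0159), while Prdx3 (log2 0.24) and Txn1 (0.34) were higher and Sod2, the superoxide dismutase of mitochondria (-0.15), and Txnrd1 (-0.17) lower. The hypoxia list had 2 of 14 higher, among them Bnip3 (0.24), and 2 lower, Pfkfb3 (-0.40) and P4ha1 (-0.25). That was 14.3% in each direction, near the 9.83% higher and 11.2% lower of all genes tested. The integrated stress response list had 1 of 16 in each direction (6.25%), below the shares of all genes tested.

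Long non-coding RNAs kept in the nucleus were higher in 4 of 9 cases, none lower (median 0.21). Snhg11 was at 2632 ± 770.2 against 2013 ± 417 (log2 0.37 ± 0.081, limma adjusted p = 0.00312) and Meg3 at 5857 ± 1706 against 4687 ± 658 (log2 0.28 ± 0.088, limma adjusted p = 0.022). AC152063.3, found by its identifier in that list, was at 8440.5 ± 824 against 7219 ± 656 (log2 0.22 ± 0.043, limma adjusted p = 0.00111). Splicing and RNA-binding genes moved both ways, with 5 of 25 higher (20%), such as the kinase Clk1 (0.45) and Luc7l3 (0.19). A further 3 were lower (12%), such as Ddx5 (-0.16). Of all genes tested 9.83% were higher and 11.2% lower.

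Synaptic vesicle genes were lower in 7 of 20 cases and higher in none (median -0.18). Nsf, the ATPase that takes SNARE complexes apart, was at 4292 ± 825 against 5249 ± 611 (log2 -0.31 ± 0.064, limma adjusted p = 0.00198). Slc32a1, the vesicular GABA transporter, was lower (-0.31; an overlapping gene at 15.6% of its value), as was Syp (-0.20; overlap 62.3%). Of 18 mRNAs known from dendrites and axons, Gria1 (log2 -0.21), Kif5c (-0.34) and Cyfip2 (-0.24) were lower and none higher (median -0.15). The lower share was 16.7%, against 11.2% of all genes tested. Without wild-type DLS these dendrite and axon mRNAs had 0 calls in limma (median -0.14). Of 25 very long neuronal genes, 3 were lower (12%, against 11.2% of all genes tested), among them Ctnnd2 (-0.33) and Dlg2 (-0.33), and Kcnip4 (0.24) was higher (4%, against 9.83%), shares near or below those of all genes. Of 22 tubulin and cytoskeletal genes, 4 were lower, including Dynll2 (-0.28) and Actg1 (-0.11), and both thymosins, Tmsb10 and Tmsb4x (0.35), were higher. The shares were 18.2% lower, against 11.2% of all genes tested, and 9.09% higher, near the 9.83% of all genes. With the transcript-length covariate described below, limma called 1 of the 22 in each direction.

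Markers of the striatal projection neurons did not shift together. Of 17 markers in the shared list, Arpp21 (log2 0.23, limma adjusted p = 0.00235) and Tac1, the precursor of substance P (0.32), were higher. Pde10a (-0.33), Adcy5 (-0.26), Bcl11b (-0.34) and Foxp1 (-0.35, overlap 9.72%) were lower. These were 11.8% higher and 23.5% lower, against 9.83% and 11.2% of all genes tested. Tac1 was also in the direct-pathway list, so its call is counted in both. Without wild-type DLS limma called 1 of the 17 higher and 0 lower. With the transcript-length covariate described below the counts were also 1 and 0. The summed level of the 17 markers was 224336 to 362122 (median 297646) in high-share and 233662 to 368631 (median 302388) in low-share libraries. Of 8 direct-pathway markers, Drd1a, the D1 dopamine receptor, was lower at 3589 ± 518 against 4095 ± 616 (log2 -0.19 ± 0.050, limma adjusted p = 0.00948), with Chrm4 (-0.21; overlap 18.1%) also lower and Tac1 higher. The direct-pathway calls were 12.5% higher and 25% lower. Scaled to the nuclear total, or with the transcript-length covariate, limma called 0 of the 8 direct-pathway markers. Of the 6 indirect-pathway markers, limma called 0, with 0 at an unadjusted p below 0.05. Drd2 stood at log2 -0.10 (limma adjusted p = 0.145) and Adora2a at 0.030 (limma adjusted p = 0.748). Among 13 interneuron markers Pvalb and Cck (0.39) were higher and Nos1, the neuronal nitric oxide synthase, lower (413 ± 189.7 against 588 ± 189, log2 -0.58, limma adjusted p = 0.0103). This was 15.4% higher and 7.69% lower. The call of Cck was lost in 28 of 44 fits that each left out 1 library. With the transcript-length covariate limma called 0 of these 13 markers.

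Astrocyte markers were lower in 6 of 14 cases and higher in none (median -0.21), among them Gja1, the gap junction protein connexin 43 (1878 ± 445 against 2170.1 ± 382, log2 -0.22, limma adjusted p = 0.0143), and Fgfr3 (-0.25). With libraries scaled to the nuclear total, copies of mitochondrial DNA included, 0 were left in limma (median -0.24), but with TMM scaling 6 were lower. Calls were also lost, with 0 left, without wild-type DLS (-0.19), without Foxp2hum/hum DLS (-0.15) and with the transcript-length covariate described below (-0.039). Without Foxp2hum/hum DMS 1 was higher and 1 lower. The summed level of the astrocyte markers was 47964 to 89083 (median 66517) in high-share and 65078 to 107893 (median 75288) in low-share libraries. Of 9 oligodendrocyte precursor markers 2 were lower (22.2%, against 11.2% of all genes tested), Pdgfra (-0.29) and Gpr17 (-0.39, overlap 136%). Of 14 oligodendrocyte markers Mbp alone was called (7.14%), higher at log2 0.19 (limma adjusted p = 0.0337). Of 14 microglial markers Aif1 was higher (0.63) and Csf1r lower (-0.17, overlap 49.03%), 7.14% each way, below the shares of all genes tested. Over the 13 of these markers reported here the summed level was 6031 to 9470.2 (median 7577) in high-share and 6374 to 8688 (median 7436) in low-share libraries. In bulk tissue, fewer cells of a type and less RNA per cell cannot be told apart.

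The choroid plexus list held 1 call and the short blood list 2. The beta-globin genes Hbb-b1 (3646 ± 1322 against 2723 ± 704, log2 0.39, limma adjusted p = 0.0242) and Hbb-b2 (0.39), close copies, were 2 of 5 blood genes called, both higher. This was 40%, against 9.83% of all genes tested. Limma still called 2 without wild-type DMS, but 0 without wild-type DLS or without either Foxp2hum/hum group. It also called 0 when scaled to the nuclear total and 0 with the transcript-length covariate described below. Of 9 choroid plexus and ependymal markers Clic6 was lower (-0.30). The summed level of these markers was 364 to 3989.9 (median 550.2) in high-share and 376 to 11199 (median 732) in low-share libraries. With Ttr and Ccdc153, which mark these cells, as covariates, 856 genes were higher and 864 lower. Limma called 0 of 16 endothelial, 8 cortical, 11 neuroblast and 58 histone genes. At an unadjusted p below 0.05 there were 1, 1, 3 and 2. The part of these cell types in the class difference was not otherwise tested.

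**Figure D4:**
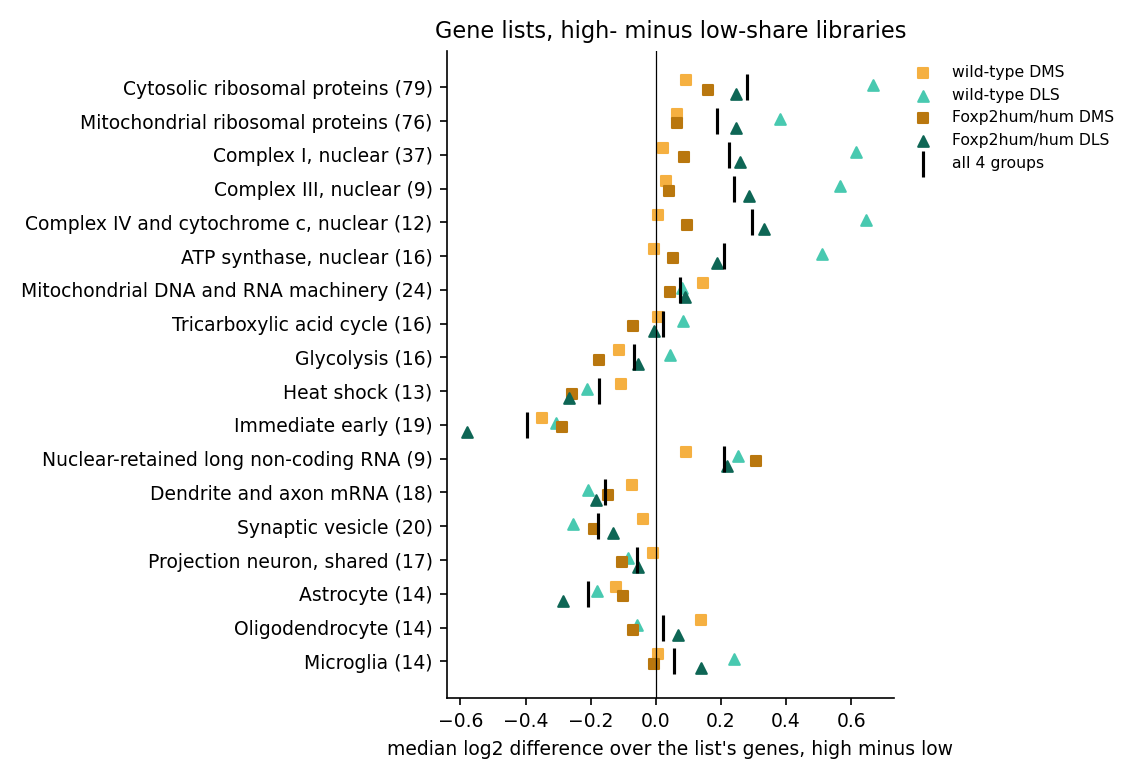
Median log2 difference, high-share minus low-share libraries, over the genes of each list (number tested in brackets). Squares are DMS groups, triangles DLS groups, lighter colours wild-type, darker colours Foxp2hum/hum, and black ticks the 4 groups together; complexes I, III and IV, ATP synthase and both ribosomal lists lie lower in the DMS than in the DLS groups, while heat shock and immediate early genes lie below 0 in all 4 groups.

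The difference followed transcript length. When 15234 protein-coding genes were ordered by the length of their longest mature transcript, the median log2 difference fell in each step, from 0.20 in the shortest decile (up to 1.14 kb) to -0.21 in the longest (from 6.34 kb). In the shortest decile 25.6% of genes were called higher and 1.51% lower. In the longest decile 1.44% were higher and 35.5% lower. The order held in both regions, from 0.070 to -0.13 in DMS and from 0.35 to -0.30 in DLS. With gene span in place of mature length, over all tested genes, the medians ran from 0.18 to -0.10. The mature length was chosen after the gene span had been seen.

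The same measure could be read in single libraries as the median centred log2 level of the shortest decile minus that of the longest. It ran from -0.66 to 1.10 (median 0.23) in high-share libraries and from -1.09 to 0.49 (median -0.093) in low-share libraries. Means were 0.22 ± 0.48 and -0.19 ± 0.45 (SD, n = 22 each), described with no test because the measure was chosen after the length pattern was seen. The classes overlapped in each group but wild-type DLS, where high-share libraries ran from -0.015 to 0.85 and low-share libraries from -1.07 to -0.069. In wild-type DMS the medians were -0.00096 and -0.12, in Foxp2hum/hum DMS 0.30 and 0.069, and for Foxp2hum/hum DLS 0.40 and 0.10. How far the length pattern accounts for other differences was not tested beyond the covariate given next.

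**Figure D5:**
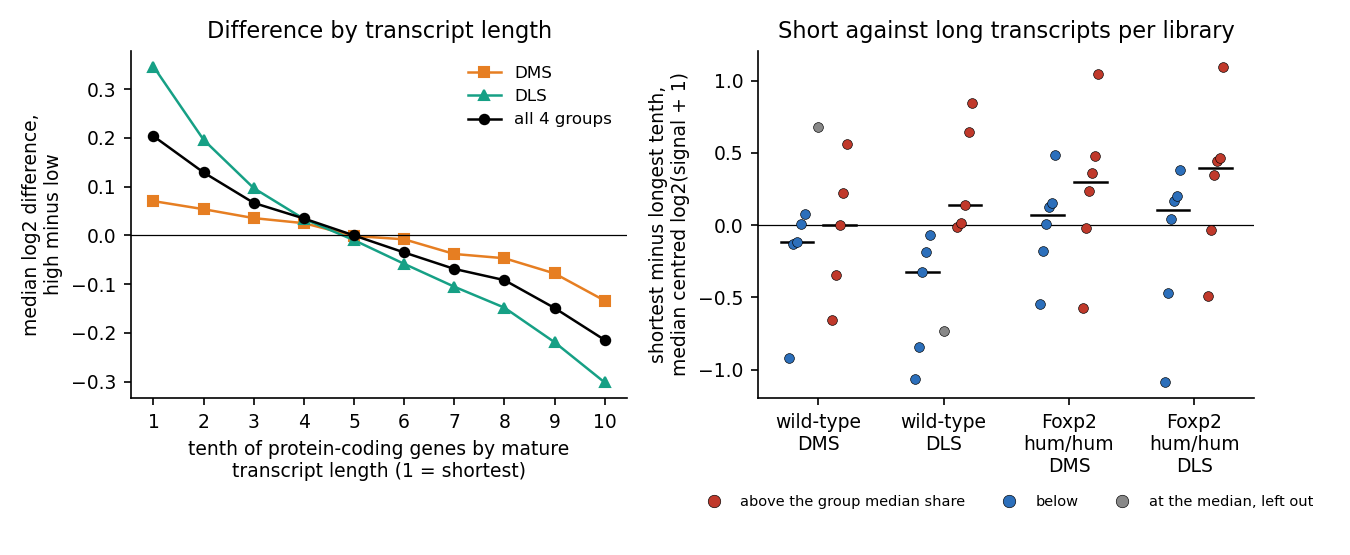
Left, median log2 difference (high-share minus low-share) for deciles of protein-coding genes ordered by mature transcript length, in all 4 groups and by region; it falls from 0.20 to -0.21 over all groups. Right, the level of the shortest against the longest decile in each library by group, with class medians as black lines; wild-type DLS is the group in which the classes do not overlap.

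With this library measure as a covariate, an alternative chosen after the data had been seen, 143 genes were higher and 159 lower, against 1920 and 2192 without it. The covariate was made from the same values as the genes tested. Of 147 genes named by the rule, 48 were still called in limma and 99 were not. Among them, of the 30 genes named by smallest p, 29 were still called, all but Pvalb, and Gxylt2 was at log2 0.61 and Chgb at -0.29. The respiratory-chain and ribosomal lists did not keep their shift. The median was -0.050 for complex I, -0.066 for ATP synthase, 0.022 for cytosolic and 0.00015 for mitochondrial ribosomal proteins, with 4 cytosolic members called higher. Complex I then had 1 member higher and 4 lower. Immediate early genes had a median of -0.36, none called by limma, heat shock genes one of -0.14 with 3 lower, and glycolysis genes one of -0.13 with 4 lower. Medians moved to -0.039 for astrocyte markers (0 called), -0.044 for synaptic vesicle genes (2 lower), 0.026 for dendrite and axon mRNAs (0 called) and -0.034 for oligodendrocyte precursor markers (1 lower).

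Against genes of like length some lists lay apart and others did not, described with no test. The complex I genes have a median mature length of 0.983 kb and a median SE of 0.10. Their differences lay a median of 0.051 above the median of their own length decile, with 26 of 37 above it. For cytosolic ribosomal proteins the median was 0.14 and 69 of 79 lay above. Of 58 replication-dependent histone genes, 52 lay below it. All 16 glycolysis genes lay below the median of their decile, as did 18 of 20 synaptic vesicle genes and 15 of 19 immediate early genes, while all 9 nuclear long non-coding RNAs lay above. Other lists lay close to their deciles. Genes of mitochondrial shape and turnover had a median of -0.00083 (13 of 26 above) and the tricarboxylic acid cycle -0.014 (7 of 16). Antioxidant genes had one of -0.0050 (9 of 20) and the shared projection-neuron list -0.0022 (8 of 17).

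Some gene classes outside the protein-coding set differed too, in a summary made after the length pattern was seen. Over all genes tested 9.83% were higher and 11.2% lower. Of 2088 pseudogenes 20.1% were higher and 5.41% lower, against 8.69% and 12.5% of protein-coding genes. Of 203 small nucleolar RNA genes 32 were higher (15.8%) and 7 lower (3.45%). These may share reads with genes that overlap them: AC152063.3 amounted to 1857% of the value of SNORD113.4, and Baz2a to 6164% of that of SNORD59.1. Of 56 small nuclear RNA genes 0 were higher and 5 lower (8.93%), and of 30 other small RNA genes (misc_RNA) 0 and 4 (13.3%). Those lower shares were near that of all genes tested. Of 15 nuclear rRNA genes 0 were higher and 3 lower (20%). Of 795 long intergenic RNA genes 8.43% were higher and 7.92% lower, and of 852 processed transcripts 6.69% and 9.51%, all below the shares of all genes tested. Reads of a pseudogene and of its parent gene may not be told apart.

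By region the calls were uneven. In the fit of all 4 groups, the contrast within DMS called 21 genes (0.108% of those tested), 15 higher and 6 lower, and that within DLS 3123 (16%), 1712 higher and 1411 lower. Fitted on the libraries of 1 region, DMS gave 20 calls and DLS 1699. The 9 genes called in both, 3 of them copies of mitochondrial DNA, went the same way, which is 42.9% of the DMS list and 0.288% of the DLS list. They included Gxylt2 (log2 0.76 in DMS and 0.78 in DLS), Bend6 (0.32 and 0.28) and Chgb (-0.38 and -0.36). The remaining 12 of the 21 DMS calls were not called in DLS, among them Sepp1 (0.32 and 0.19) and Pkm2 (-0.25 and -0.13).

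The regions have no library in common but may share animals, so the following signs are a description. All 21 DMS calls had the same sign in DLS, and 2909 of the 3123 DLS calls (93.1%) had the same sign in DMS, as did 70.3% of all genes tested. The difference between regions was itself tested: limma called 0 of 19524 genes (0%) for an interaction of share class and region, with 1222 at an unadjusted p below 0.05 and a smallest adjusted p of 0.383, and edgeR called 0, with 1145. The smallest p belonged to Gm13210, a low gene at log2 1.69 in DMS and -1.39 in DLS (limma adjusted p = 0.383). The uneven counts are therefore not shown to be a difference between regions.

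Genotype gave no call either. For an interaction of share class and genotype limma called 0 genes (0%), with 696 at an unadjusted p below 0.05 and a smallest adjusted p of 0.9998, and edgeR called 0, with 798. The smallest p belonged to Ptprv, a receptor phosphatase gene (log2 -1.96 for Foxp2hum/hum minus wild-type). Within single groups limma called 0 genes, with 5 or 6 libraries in each class, while 1287 genes in wild-type DMS, 4986 in wild-type DLS, 1513 in Foxp2hum/hum DMS and 2563 among Foxp2hum/hum DLS libraries had an unadjusted p below 0.05.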

How the data were processed

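RNA from laser-captured mouse striatum was sequenced in 46 libraries. The deposited table holds 1 normalised signal per gene and library, 25259 genes in all. Per the submitters' processing notes, TopHat 1.4.1, bedtools, DESeq and the mm9 genome were used; the order and settings of these steps were not recorded there. The deposited signal came out as whole reads after division by a factor per library, for 100% of values above 0 at a tolerance of 0.01, and reads were recovered from it.

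The test was limma 3.58.1 (R 4.3.3; trend in eBayes, two-sided) on log2(signal + 1) for genes with a mean of at least 10, with the 4 groups as blocks, Benjamini-Hochberg adjustment over all 19561 genes fitted and a threshold of 0.05. Differences are on that scale, which understates the change of low genes. Members, gene lists and tests were chosen with earlier results of these data known. Named genes were in each direction the 15 called genes of smallest p with a mean of at least 50 and no overlapping gene at 10% or more of the value, leaving out unnamed gene models, up to 4 members of each list in each direction, and the 3 with the smallest p for interactions; a few others were chosen after their values were seen, and some items that met the rule are not reported here. Annotation was GENCODE M1, matched for 25023 genes. Nuclear copies were found with BLAST+ 2.17.0. Counting strand was not given, so overlapping genes may share reads.

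Alternatives were other pseudocounts, filters, scalings, class definitions, covariates and left-out groups or libraries, with edgeR 4.0.16 and DESeq2 1.42.0 on the recovered counts. On data simulated for the comparison of high-share with low-share libraries (19524 genes), limma recovered 10 of 50 genes changed 1.25-fold, 40 of 50 at 1.5-fold, 45 of 50 at 2-fold and 50 of 50 at 3-fold, with 6 false calls. Each gene was drawn independently there, with no shift shared by many genes of a library, such as that with transcript length. The 6 false calls therefore give no rate for the measured data.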

Additional observations from a re-analysis of the deposited data

Results flagged for a closer look

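In wild-type DMS, 1 low-share library lay apart from the other 4 in the level of short against long transcripts, at -0.9163 where its class median was -0.118. It was library 72, which also had the lowest mitochondrial share, 11.9%. Dixon's criterion was applied to the mitochondrial share and to this level in each class of each group, 16 tests in all. By its share library 72 was not set apart. Chance alone sets about 1 in 20 apart.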

How the results depend on the processing

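The 1920 higher and 2192 lower genes changed by over 1.5 times in at least 1 direction under these alternatives, higher count first. Scaling to the nuclear total, copies of mitochondrial DNA included, gave 525 and 1015. The share as a linear term gave 3743 and 4144, and classes set by mitochondrial rRNA alone 105 and 40. Ttr and Ccdc153 as covariates gave 856 and 864, and array weights 1289 and 1458. Without wild-type DLS there were 287 and 299, without Foxp2hum/hum DMS 1199 and 1190, without Foxp2hum/hum DLS 839 and 796, and without libraries 70 and 72, 1310 and 1398. With short against long transcripts as a covariate, chosen after the data were seen, there were 143 and 159. DLS fitted alone gave 1699 calls in place of 3123. The first minus the last length decile was 0.28 by gene span and 0.418 by mature transcript. For these the cause was not tested.

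Hnrnpa2b1 turned to 0.00048 on the log2 scale with rRNA classes and was not called by limma there. With rRNA classes, 1 of 147 named genes was still called in its direction. Leaving out each library in turn gave 1410 to 2502 higher genes and 1590 to 2822 lower, lowest without library 64 and highest without library 80. Over the 147 named genes, 270 of 6468 values from these 44 fits lost their call. The losses fell on some genes more than others: 30 fits for Actg1, 28 for Cck, 27 for Idh3g, 21 for Clic6 and 18 for Cyfip2. Hsd17b10 lost its call in 16 fits, Bnip3 in 13, Opa1 in 12 and Fastkd2 in 11. edgeR called 1895 and 1799 genes and DESeq2 2234 and 2149. No paired analysis was possible because the labels give the groups no shared replicate numbers.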
